A study of Mus musculus with 9 samples.

Results

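The genes described here make and crosslink the collagen molecule after its chains have been translated. They are 10 of the 38924 genes in the count table and were picked by name, as the genes whose Ensembl identifiers carry these symbols, from a list drawn up with earlier results of these data known: the lysyl oxidases Lox, Loxl1, Loxl2 and Loxl3, the prolyl 4-hydroxylase alpha subunits P4ha1, P4ha2 and P4ha3, the lysyl hydroxylases Plod1 and Plod2, and the collagen chaperone Serpinh1. All 10 were found. The cells were primary cardiac fibroblasts from mice aged 8 to 10 weeks, their RNA was sequenced, and the question was whether loss of Gata4 or Tbx20, transcription factors that build the embryonic heart, changes what adult cardiac fibroblasts express. All 9 libraries came from RosaCas9-EGFP cells on a C57BL/6 background, which express Cas9, the cutting enzyme, together with enhanced GFP in every group, the control included. The cells were sorted as CD45-, CD31- and CD90+, grown to near confluency and transfected with guide RNAs: 3 libraries received scrambled guides (Control), 3 received guides against Gata4 (Gata4 KD) and 3 received guides against Tbx20 (Tbx20 KD).

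Guides were delivered by lipid to a whole culture and cells were not selected afterwards, so each knockdown library mixes edited and unedited cells, and in such bulk RNA fewer expressing cells and less RNA per cell cannot be told apart. Gata4 stood at 162 CPM (the usual depth-scaled read count, with scaling factors set over the 9 libraries) in control and 55.4 CPM in Gata4 KD, and Tbx20 stood at 1002 CPM in control and 391 CPM in Tbx20 KD. Each target also differed in the other knockdown. Tbx20 averaged 698 CPM in Gata4 KD, overlapping control, and Gata4 averaged 189 CPM in Tbx20 KD, above control in every library. Neither of these differences passed the edgeR test described below (adjusted p = 0.636 and 0.9997). Libraries held 31214828 to 41950397 counts, and the median correlation of a library with the others was 0.984 to 0.990 on log2 CPM. After group means were removed, Control b and Control c lay at opposite ends of the first principal component, which held 33.7% of the variance. Fibroblast markers summed to 12288 to 12833 CPM in control, 9468 to 11963 CPM in Gata4 KD and 11677 to 13450 CPM in Tbx20 KD, with all 10 of the list detected. The defining markers of other cell types were low: 8 leukocyte genes summed to at most 52.5 CPM, 7 endothelial genes to at most 57.8 CPM, 6 mural genes to at most 40.7 CPM and 4 Schwann cell genes to at most 2.47 CPM. The 9 epicardial or mesothelial genes summed to 96.3 to 117 CPM in control, 98.3 to 158 CPM in Gata4 KD and 101 to 126 CPM in Tbx20 KD, with Aldh1a2 the highest of them in every library.

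Collagen chains enter the endoplasmic reticulum as single strands. Prolyl 4-hydroxylases, which pair an alpha subunit with the protein disulfide isomerase P4hb, turn proline into 4-hydroxyproline, without which the triple helix is not stable at body temperature. Lysyl hydroxylases modify lysines that later carry sugars or crosslinks, and the chaperone HSP47, the product of Serpinh1, binds the folded procollagen and travels with it towards the Golgi. Outside the cell, lysyl oxidases, which are copper enzymes, oxidise lysine and hydroxylysine side chains to aldehydes that join neighbouring collagen and elastin molecules. In the heart these steps set how stiff and how long-lived a scar is, and cardiac fibroblasts are the main cells that carry them out.

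Compared per kilobase of exon, the 10 genes covered a wide range in control fibroblasts. Serpinh1 was the highest at 848 RPKM (CPM per kilobase of exon) ± 41.7 (SD, n = 3), and only 26 of 14591 genes were higher. Lox followed at 195 RPKM, Loxl2 at 109 RPKM, P4ha1 at 85.6 RPKM and Loxl1 at 73.7 RPKM. Between these the ranges of the control libraries did not overlap from any gene to the next.

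Loxl3 at 56.0 RPKM and Plod2 at 53.9 RPKM could not be ordered, since the Plod2 libraries ran from 40.7 to 67.9 RPKM. P4ha2 at 10.5 RPKM, P4ha3 at 9.01 RPKM and Plod1 at 8.17 RPKM formed the lowest group, with overlapping ranges from each to the next. Even Plod1 was above 63.7% of the genes compared. The order below P4ha1 depends on the length used, because P4ha2, Plod1 and Plod2 have transcripts much shorter than their joined exons. With the longest transcript as length Plod2 stood at 79.4 RPKM, above Loxl1 at 73.7 RPKM.

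**Figure D1:**
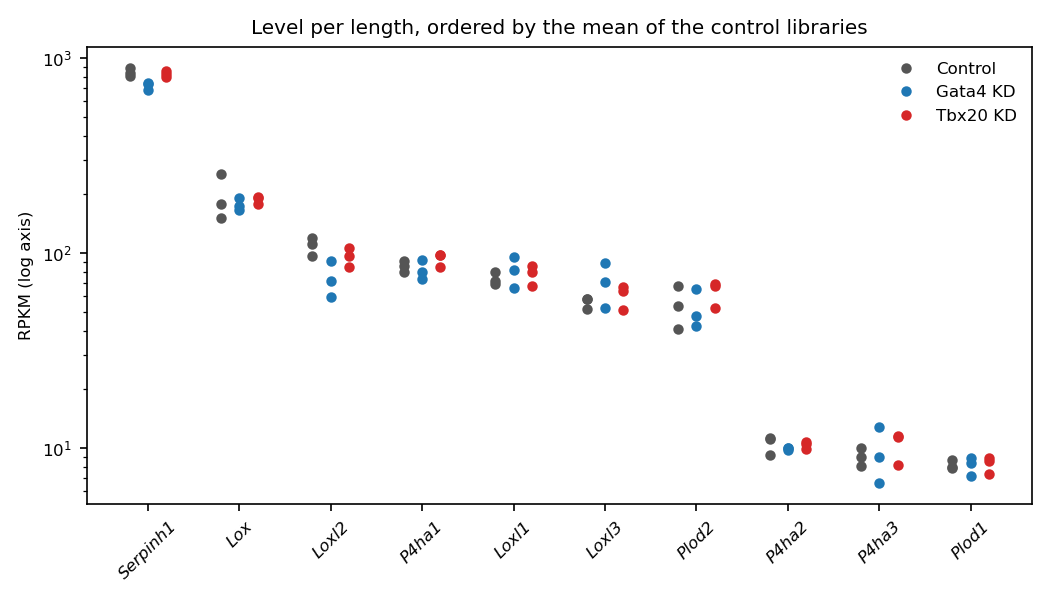
Level of each gene per length (RPKM, log axis) in every library, with genes in the order of their control mean. Dots are libraries, 3 per group. Serpinh1 is the highest in all 9 libraries, and P4ha2, P4ha3 and Plod1 lie below the other members in every library.

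None of the 10 genes passed an adjusted p of 0.05 in any of the 3 comparisons. In Gata4 KD against control 0 of 10 passed, where 0.380% of the 14468 genes tested did, and 2 of 10 had an unadjusted p under 0.05, both lower, against 8.54% of all genes, or 4.64% that were lower. In Tbx20 KD against control 0 of 10 passed and 0 of 10 had an unadjusted p under 0.05, where 0.00687% and 2.69% of 14547 genes did. Tbx20 itself did not pass in that comparison (log2 fold change -1.35, edgeR adjusted p = 0.748), so the lack of calls there says little about the members. Between the knockdowns 0 of 10 passed against 1.44% of 14477 genes, and 2 of 10 had an unadjusted p under 0.05, both lower in Gata4 KD, against 16.7%, or 7.52% that were lower. These are edgeR quasi-likelihood tests with Benjamini-Hochberg adjustment over all genes tested. With DESeq2, Loxl2 was past the threshold in Gata4 KD against control and Serpinh1 was past it between the knockdowns.

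The median log2 fold change of the members was -0.06 in Gata4 KD against control, with 7 of 10 below 0 where 54.1% of all genes tested were below 0 with a median of -0.02. In Tbx20 KD against control it was 0.06 with 4 of 10 below 0, and over all genes 50.7% were below 0. Between the knockdowns it was -0.10 with 8 of 10 below 0, and over all genes 51.7% were below 0. The comparisons with control share the same 3 control libraries, and the direct comparison reuses both knockdown groups. The study calls the replicates biological, and the labels do not say whether they came from separate animals or cultures, so where they did not, p-values measure only the spread between these libraries, which may be technical.

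**Figure D2:**
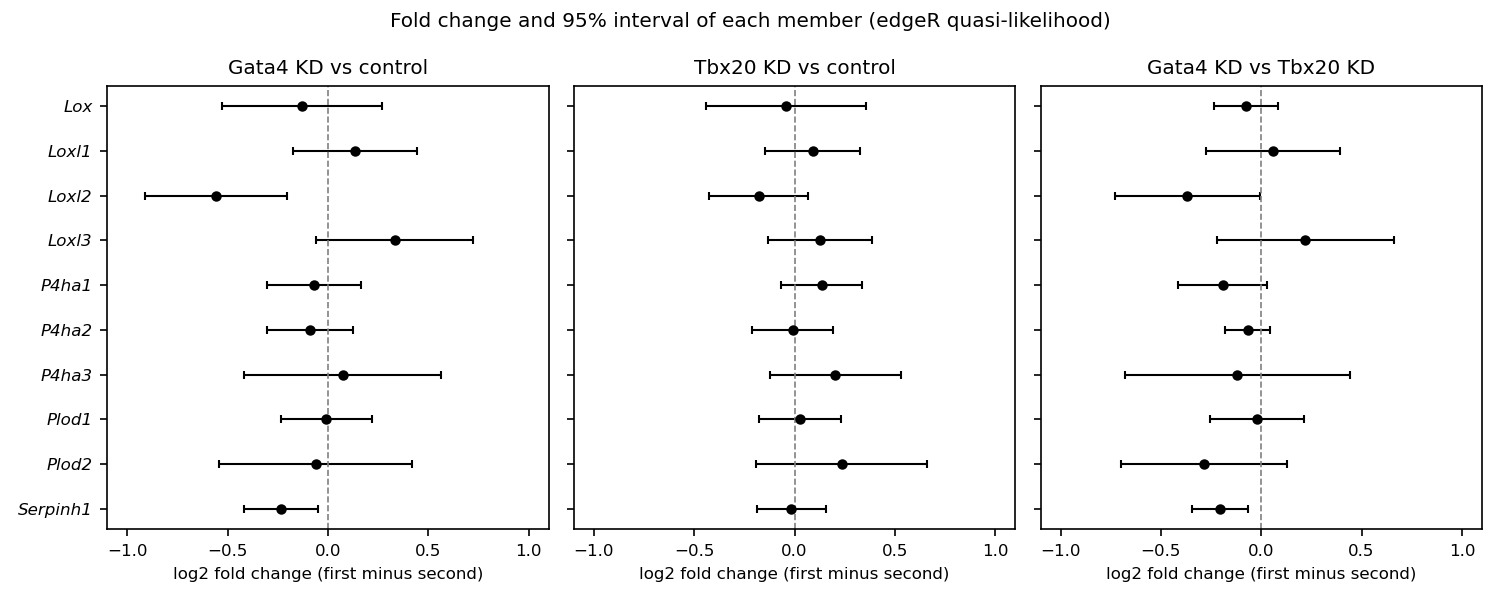
Log2 fold change of each member with its 95% interval in the 3 comparisons (edgeR quasi-likelihood fit, first group minus second group). The intervals of Loxl2 and Serpinh1 lie below 0 in Gata4 KD against control and in Gata4 KD against Tbx20 KD, and all 10 intervals span 0 in Tbx20 KD against control.

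Among the crosslinking enzymes, Loxl2 showed the largest difference from control. Loxl2 carries scavenger receptor domains ahead of its oxidase domain and is known for crosslinking collagen in fibrotic tissue, the heart included. It lies on chromosome 14 (GRCm38, 69609068 to 69695834, plus strand), 6.34 Mb from Gata4 itself. Its level was 643, 603 and 523 CPM in control, 389, 320 and 493 CPM in Gata4 KD, and 460, 521 and 571 CPM in Tbx20 KD (replicates a, b and c). Each Gata4 KD library was below each control library, although Gata4 KD c came close to Control c, and the Tbx20 KD libraries overlapped both other groups.

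The log2 fold change of Loxl2 in Gata4 KD against control was -0.56 (SE 0.15, 95% interval -0.91 to -0.20), a difference of -32.1% with an edgeR adjusted p of 0.279. Groups that do not overlap were found for 13.8% of all genes tested in this comparison, 7.62% lower in Gata4 KD, and for 2 of 10 members, both lower. The direct difference between the knockdowns was -0.37 (SE 0.15, interval -0.73 to -0.01, edgeR adjusted p = 0.288). Leaving out 1 library moved that difference from -0.55 without Gata4 KD c, the highest of its group (edgeR adjusted p = 0.0376), to -0.23 without Gata4 KD b, the lowest, and the edgeR adjusted p reached 0.616. Against control, Loxl2 in Tbx20 KD gave a log2 fold change of -0.18, with an interval of -0.42 to 0.07.

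Of the sequence windows of read length in Loxl2 transcripts, 43.6% also occur in another gene. The pseudogene Gm21451 shares windows with Loxl2, so the counts of the pair depend on how reads were divided. Gm21451 was assigned 25 to 163 counts per library, 0.214% to 0.685% of the counts of the pair. Of the other members only Plod1 shared any window, at 0.172%.

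Lox, the founding member of its family and the main crosslinker of fibrillar collagen, was the most abundant of the lysyl oxidases. It was measured at 858, 1213 and 721 CPM in control, 836, 797 and 918 CPM in Gata4 KD, and 850, 923 and 916 CPM in Tbx20 KD. Control b and Control c hold the highest and the lowest of the 9 values, so both knockdown groups lie within the range of the controls. For Lox the log2 fold change was -0.13 in Gata4 KD (interval -0.53 to 0.27) and -0.04 in Tbx20 KD (interval -0.44 to 0.35). The coefficient of variation was 27.3% among the control libraries and 4.49% among the Tbx20 KD libraries.

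Loxl3, a relative of Loxl2 with the same domain plan, had a fold change of the opposite sign that did not pass. It stood at 269, 267 and 238 CPM in control, 326, 240 and 408 CPM in Gata4 KD, and 234, 308 and 295 CPM in Tbx20 KD. Gata4 KD a and c exceeded every control library and Gata4 KD b did not. The log2 fold change in Gata4 KD was 0.33 (SE 0.17, interval -0.06 to 0.72, edgeR adjusted p = 0.674), and ran from 0.16 without Gata4 KD c to 0.51 without Gata4 KD b.

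Loxl1, which acts mainly on elastin, was measured at 264, 238 and 228 CPM in control, 269, 217 and 316 CPM in Gata4 KD, and 222, 265 and 283 CPM in Tbx20 KD. The groups overlapped, with Gata4 KD b the lowest and Gata4 KD c the highest of all 9 libraries. Its log2 fold change was 0.14 in Gata4 KD (interval -0.17 to 0.45) and 0.09 in Tbx20 KD (interval -0.15 to 0.33).

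**Figure D3:**
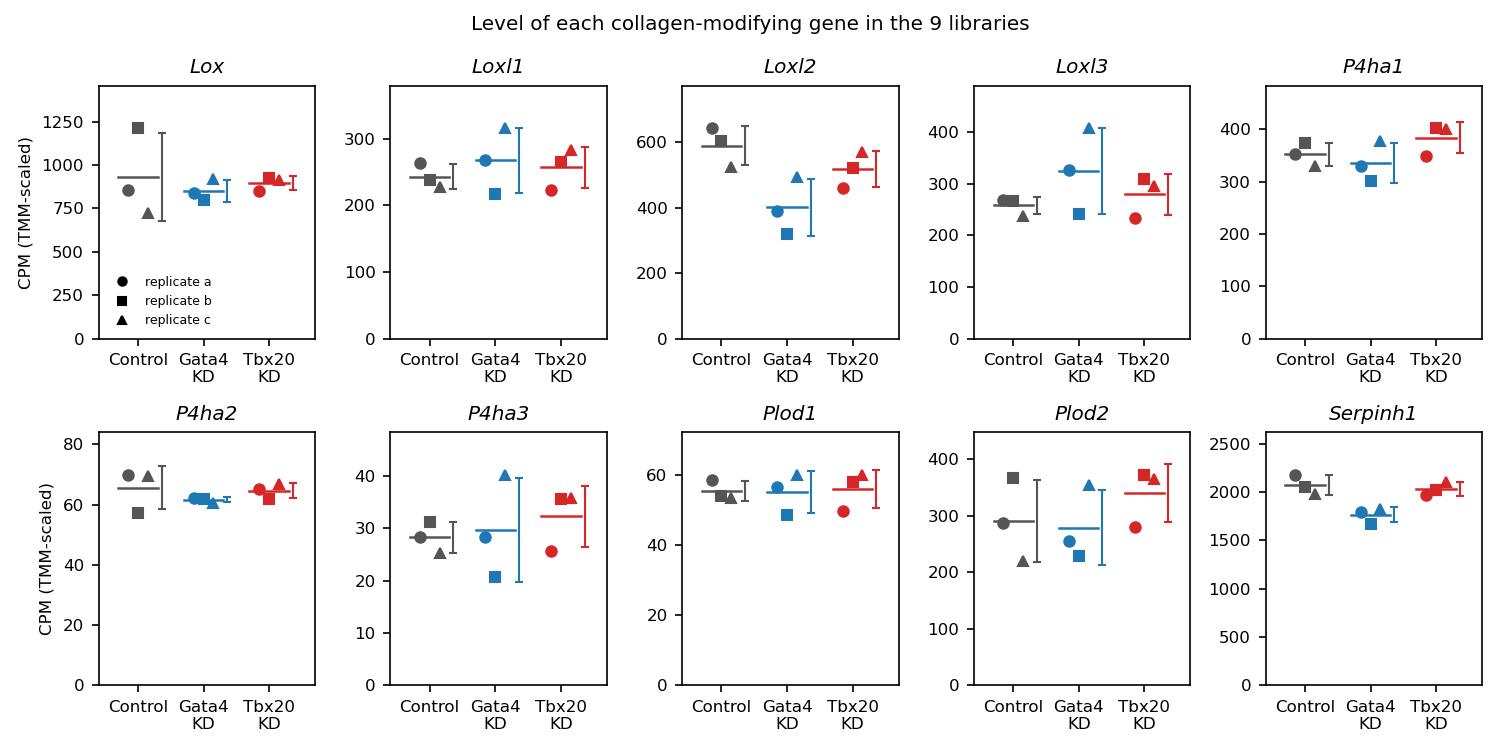
CPM of each member in the 9 libraries (linear axes from 0), with a line at the group mean and a bar of 1 SD to its right (n = 3 per group), and with the replicate letter given by the symbol. Loxl2 and Serpinh1 lie lower in all 3 Gata4 KD libraries than in any control library, and the groups overlap for the other 8 genes.

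Shares within a class do not depend on library scaling, but they depend on the length used for each gene. Of the summed RPKM of the lysyl oxidases, here with Loxl4 added, Lox held 43.4% ± 5.95 (SD, n = 3) in control, 43.6% ± 3.45 in Gata4 KD and 43.7% ± 1.81 in Tbx20 KD. Loxl2 held 22.1% to 26.6% in control, 16.8% to 19.2% in Gata4 KD and 21.7% to 23.1% in Tbx20 KD, so that the Gata4 KD range was below both others. Loxl3 held 11.5% to 13.6%, 14.8% to 18.6% and 13.0% to 15.0% in the same order, and Loxl1 held 14.3% to 18.2%, 18.7% to 20.2% and 17.3% to 18.8%. Loxl3 and Loxl1 were thus above control in all 3 Gata4 KD libraries as a share of the class, where their CPM overlapped control. Loxl4 held at most 2.74% of the class in any library. Shares add up to a whole, so a lower share of Loxl2 raises the others, and no test was made of them.

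**Figure D4:**
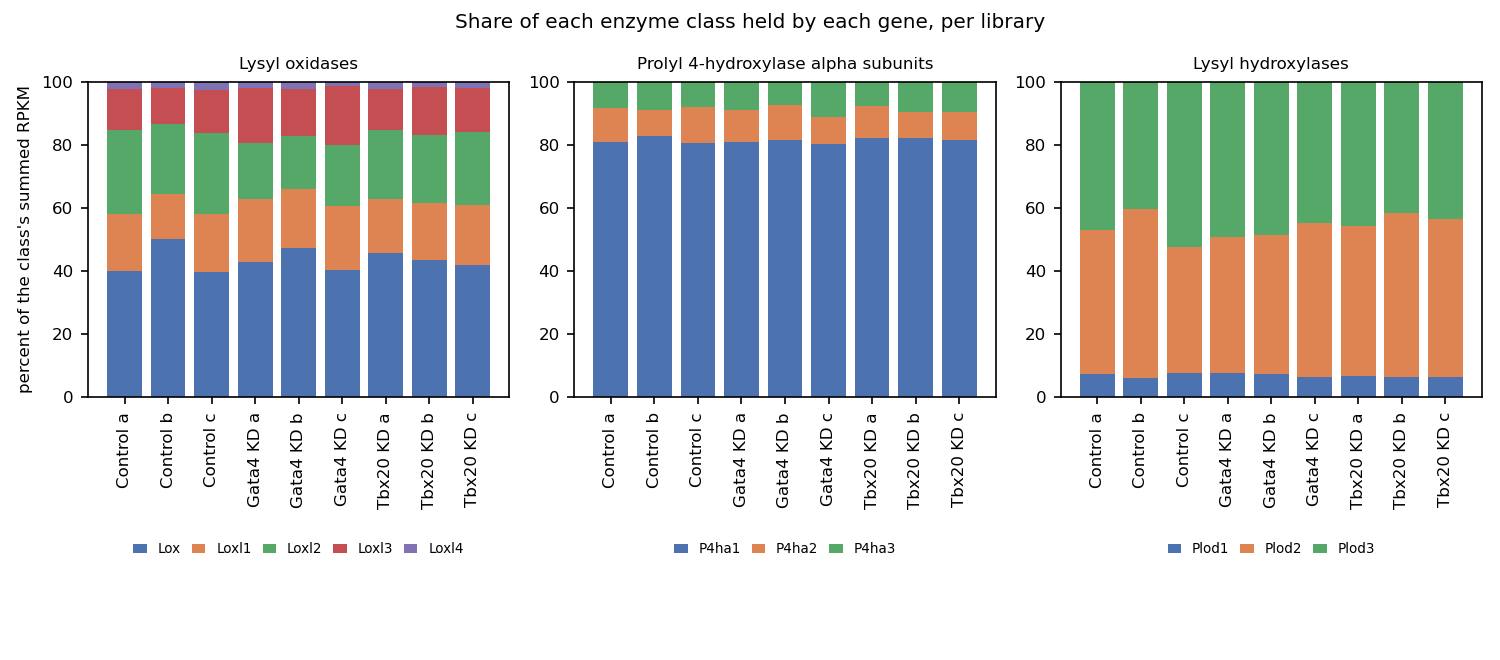
Share of the summed RPKM of each enzyme class held by each gene (percent, stacked bars, 1 bar per library, with Loxl4 and Plod3 added to complete the classes). The Loxl2 band is narrower in the 3 Gata4 KD libraries (16.8% to 19.2%) than in control (22.1% to 26.6%), and P4ha1 fills about 80% of its class throughout with joined exons as length.

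None of the prolyl 4-hydroxylase alpha subunits passed in any of the 3 comparisons (edgeR), and P4ha1 kept most of its class in every library. P4ha1, the main catalytic subunit in most cells, held 81.4% ± 1.07 (SD, n = 3) of the class in control, 80.9% ± 0.682 in Gata4 KD and 81.9% ± 0.366 in Tbx20 KD. With the longest transcript as length P4ha1 held 72.4% in control, and P4ha2 held 17.9% rather than 10.0%. The level of P4ha1 was 353, 374 and 330 CPM in control, 329, 302 and 377 CPM in Gata4 KD, and 349, 402 and 400 CPM in Tbx20 KD. The 3 groups overlapped, with Tbx20 KD b and c the highest of the libraries. For P4ha1 the log2 fold change was -0.07 in Gata4 KD (interval -0.30 to 0.17), 0.14 in Tbx20 KD (interval -0.07 to 0.34) and -0.19 between the knockdowns (interval -0.41 to 0.03, edgeR adjusted p = 0.360).

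P4ha2, an alternative subunit abundant in cartilage and bone, varied least of the members, with a coefficient of variation of 6.56% over the 9 libraries. It was measured at 70.0, 57.3 and 69.4 CPM in control, 62.2, 62.0 and 60.6 CPM in Gata4 KD, and 65.1, 61.9 and 66.7 CPM in Tbx20 KD. All knockdown values lay inside the control range. The log2 fold change of P4ha2 was -0.09 in Gata4 KD (interval -0.31 to 0.13) and -0.01 in Tbx20 KD (interval -0.21 to 0.19).

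P4ha3, the third subunit, had the fewest counts of the members, from 749 to 1456 per library. It stood at 28.3, 31.1 and 25.3 CPM in control, 28.3, 20.6 and 40.3 CPM in Gata4 KD, and 25.6, 35.5 and 35.9 CPM in Tbx20 KD. Gata4 KD b was the lowest and Gata4 KD c the highest of all libraries, a coefficient of variation of 33.4% within that group. The intervals were wide, from -0.42 to 0.57 in Gata4 KD and from -0.13 to 0.53 in Tbx20 KD.

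Of the lysyl hydroxylases, Plod2, which acts on the telopeptides and so favours the stable crosslinks of scar tissue, was far more abundant than Plod1, which acts on the helix. Plod2 was measured at 287, 366 and 220 CPM in control, 255, 228 and 354 CPM in Gata4 KD, and 281, 373 and 366 CPM in Tbx20 KD. Control c was the lowest of the 9 libraries, Control b was among the highest, and the knockdown groups overlapped control. For Plod2 the log2 fold change was -0.06 in Gata4 KD (interval -0.54 to 0.42), 0.23 in Tbx20 KD (interval -0.19 to 0.66) and -0.29 between the knockdowns (interval -0.70 to 0.13).

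Plod1 was measured at 58.5, 54.1 and 53.3 CPM in control, 56.6, 48.5 and 60.1 CPM in Gata4 KD, and 49.7, 57.9 and 60.1 CPM in Tbx20 KD. Both knockdown groups overlapped control and its group means lay within 1 CPM of each other, at 55.3, 55.03 and 55.9 CPM. For Plod1 the log2 fold change was -0.01 in Gata4 KD (interval -0.23 to 0.22) and changed sign with DESeq2 and with another scaling. Per length, Plod2 held 46.3% ± 6.86 (SD, n = 3) of the lysyl hydroxylases in control, Plod3 held 46.6% ± 6.14 and Plod1 held 7.13% ± 0.739. With the longest transcript as length Plod2 held 47.3% and Plod3 held 44.6%, so their order depends on the length.

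Serpinh1 encodes HSP47, a chaperone whose known clients are collagens. Its level was 2182, 2053 and 1981 CPM in control, 1796, 1675 and 1822 CPM in Gata4 KD, and 1966, 2023 and 2108 CPM in Tbx20 KD. Every Gata4 KD library was below every library of the other groups, and the coefficient of variation within groups was 3.54% to 4.92%. The log2 fold change was -0.23 in Gata4 KD against control (SE 0.08, interval -0.42 to -0.05, edgeR adjusted p = 0.444), a difference of -14.9%. Between the knockdowns it was -0.20 (SE 0.06, interval -0.34 to -0.06, edgeR adjusted p = 0.154), and groups that do not overlap were found for 23.0% of all genes tested, 10.8% lower in Gata4 KD, and for 1 of 10 members. Against control, Tbx20 KD gave -0.02 with an interval of -0.19 to 0.16, and groups that do not overlap were found for 6.74% of all genes and 0 of 10 members.

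Summed fibroblast markers were also lower in every Gata4 KD library than in any control library, a sum carried by Col1a1, Col1a2 and Vim. Of the 10 genes of that list 0 passed (edgeR), 7 were below 0 on the log2 scale, and 3 (Col1a1, Vim and Tcf21) did not overlap control. Over all genes tested 54.1% were below 0 and 13.8% did not overlap. Col1a2 overlapped control at 2618 to 3856 CPM against 3504 to 4242 CPM, and Pdgfra lay the other way at 581 CPM against 450 CPM (log2 fold change 0.37, edgeR adjusted p = 0.485). Cardiomyocyte markers summed to 8.73 to 9.80 CPM in Gata4 KD against 24.5 to 31.3 CPM, where 7 of 8 genes were under 1 CPM and Tnnt2 made up the sum (log2 fold change -1.64, edgeR adjusted p = 0.00272).

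Of the 9 epicardial or mesothelial genes 7 were tested in Gata4 KD against control and 1 passed, Lrrn4, which fell from 24.8 CPM to 2.39 CPM (log2 fold change -3.38, SE 0.26, edgeR adjusted p = 0.00272). Without passing, Upk3b was at 0.854 CPM against 2.43 CPM, Upk1b at 1.49 CPM against 3.31 CPM and Aldh1a2 at 112 CPM against 66.6 CPM, and Wt1 was under 1 CPM in both group means. In all, 4 of the 9 lay below control without overlap and 2 lay above. Among those below, Krt8 was too low to be tested, at no more than 0.109 CPM in any control or Gata4 KD library. Groups did not overlap for 13.8% of all genes tested, 7.62% lower in Gata4 KD. Between the knockdowns Lrrn4 was again lower in Gata4 KD (-3.42, edgeR adjusted p = 0.000961), as was Tnnt2 (-1.44, edgeR adjusted p = 0.00154), and the endothelial gene Kdr was higher, at 5.57 CPM against 2.98 CPM (edgeR adjusted p = 0.0258). The part of these marker differences in the values of Loxl2 and Serpinh1 was not tested.

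Promoters were shown for Serpinh1, the member whose Gata4 KD libraries lay below all others, and for P4ha1, the only member searched with a T-box match. Each is the stretch of 250 bases before the start of the gene, 5′ to 3′ on the strand of the gene, from RefSeq on GRCm38.p6. Serpinh1 is on the minus strand (chr7:99353240-99353489) and P4ha1 on the plus strand (chr10:59323046-59323295). Capitals mark motif matches on either strand, which are the hypoxia response element core (ACGTG or GCGTG) in both and the T-box half-site (GGTGTGA) in P4ha1.
Serpinh1: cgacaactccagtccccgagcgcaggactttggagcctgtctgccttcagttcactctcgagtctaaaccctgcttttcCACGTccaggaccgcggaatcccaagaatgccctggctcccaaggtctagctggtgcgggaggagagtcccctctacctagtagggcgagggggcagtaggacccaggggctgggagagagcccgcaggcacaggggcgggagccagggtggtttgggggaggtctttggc
P4ha1: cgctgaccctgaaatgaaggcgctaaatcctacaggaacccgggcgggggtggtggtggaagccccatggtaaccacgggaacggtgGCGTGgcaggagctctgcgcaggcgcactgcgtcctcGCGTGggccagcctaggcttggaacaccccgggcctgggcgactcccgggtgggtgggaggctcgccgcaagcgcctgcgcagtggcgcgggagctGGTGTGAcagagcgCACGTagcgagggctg

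The RefSeq promoter table held 5 of the 10 members, namely P4ha1, P4ha2, P4ha3, Plod1 and Serpinh1, and each was searched over 300 bases, from 250 before to 50 after the start. GATA motifs (GATAA or GATAG preceded by A or T) were found in 0 of 5 member promoters and in 29.8% of the 32851 promoters of the table. The T-box half-site was found in 1 of 5, starting 30 bases before the start of P4ha1, and in 3.98% of all promoters. The hypoxia core was found in 4 of 5 and in 43.8% of all promoters, with matches that began 163, 126 and 16 bases before the start of P4ha1 and 171 bases before that of Serpinh1. The heat shock element (GAANNTTC) was found in 1 of 5, Plod1, and in 7.86% of all promoters. Motifs of different kinds did not overlap in these promoters. A match or its lack describes the letters of these windows only.

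The substrate of these enzymes varied between libraries as well. The 11 fibril-forming collagens summed to 13289 to 15290 CPM in control, 10663, 9437 and 14013 CPM in Gata4 KD a, b and c, and 12711 to 15881 CPM in Tbx20 KD. Per 1000 CPM of these collagens, Loxl1 was 15.5 to 18.4 in control and 22.5 to 25.2 in Gata4 KD, Loxl3 was 17.4 to 18.8 and 25.5 to 30.6, and P4ha1 was 24.5 to 24.8 and 26.9 to 32.0. Loxl2 was 39.4 to 44.99 in control, 34.0 to 36.5 in Gata4 KD and 35.9 to 36.2 in Tbx20 KD, below control in all 6 knockdown libraries. Serpinh1, at 134 to 153 in control and 130 to 177 in Gata4 KD, overlapped on this scale.

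On this scale 5 of 10 members (Loxl1, Loxl3, P4ha1, P4ha3 and Plod1) were above control without overlap in Gata4 KD, where 22.3% of all genes tested were, and 1 of 10 (Loxl2) was below, where 0.919% were. In Tbx20 KD against control 1 of 10 was above (P4ha1) against 2.30% of all genes, and 1 of 10 was below (Loxl2) against 1.42%. Between the knockdowns 3 of 10 were higher in Gata4 KD (Loxl1, Loxl3 and Plod1) against 19.3% of all genes, and 0 of 10 were lower against 1.30%. The denominator is itself measured in these libraries and lower in Gata4 KD a and b.

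Over the 9 libraries the 45 pairs of members had Pearson correlations of log2 CPM from -0.70 to 0.94 with a median of 0.51. P4ha1 with Plod2 (r = 0.94), Loxl2 with Serpinh1 (r = 0.93), Loxl1 with Loxl3 (r = 0.93) and Loxl1 with Plod1 (r = 0.92) were the highest. Of the 45 pairs 7 were below 0, and 6 of these 7 held P4ha2, the lowest being with Lox (r = -0.70), while P4ha2 with Serpinh1 was at r = 0.42. Libraries of a group share their guide RNAs, so these are descriptions. Loxl2 and Loxl3, alike in their domains, were at r = 0.08.

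Among 13216 tested genes without predicted names, the gene most like each member over the 9 libraries was Fam174a for Lox (r = 0.99), Samd14 for Loxl1 (r = 0.98), Tmem108 for Loxl2 (r = 0.99) and Pdgfrb for Loxl3 (r = 0.98). For the hydroxylases it was Sorl1 for P4ha1 (r = 0.99), Gstp1 for P4ha2 (r = 0.97), Ltbp2 for P4ha3 (r = 0.99), Timp1 for Plod1 (r = 0.97) and Colec12 for Plod2 (r = 0.998). For Serpinh1 it was Plin3 (r = 0.97). Each r is the highest of 13216 over only 9 libraries, so the picking alone makes it high, and these too are descriptions.

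Among the partners of these enzymes, calls depended on the test used. Of 23 genes for procollagen processing and folding outside the 10, 22 were tested in Gata4 KD against control and 0 passed, 19 of them with a log2 fold change below 0 and a median of -0.13. Over all genes tested 54.1% were below 0. Of the 22, 5 lay below control without overlap, against 7.62% of all genes, and 0 lay above. The smallest p was that of Pcolce2, an enhancer of procollagen C-proteinase, at 41.5 ± 6.17 CPM in Gata4 KD and 63.0 ± 3.83 CPM in control (SD, n = 3), with a log2 fold change of -0.60 (SE 0.12) and an edgeR adjusted p of 0.100. In Tbx20 KD against control 0 of 22 passed, and the smallest p was that of Loxl4, the remaining lysyl oxidase (log2 fold change -0.19, SE 0.08, edgeR adjusted p = 0.9997). Loxl4 differed more from control in Gata4 KD, at 30.7 to 36.9 CPM against 40.8 to 45.7 CPM. Its log2 fold change there was -0.35 (SE 0.10, edgeR adjusted p = 0.263), so Loxl2 was not the only lysyl oxidase below control without overlap. Between the knockdowns 0 of 23 passed, and 19 were below 0 with a median of -0.15, against 51.7% of all genes. Pcolce2 was nearest at -0.56 with an edgeR adjusted p of 0.0522. Pcolce2 passed under 4 of 15 alternatives in Gata4 KD against control (DESeq2 adjusted p = 0.00100) and under 8 of 15 between the knockdowns (DESeq2 adjusted p = 7.78e-05).

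Of the 11 fibril-forming collagens 0 passed in Gata4 KD against control, 8 of them below 0 with a median log2 fold change of -0.24. Over all genes tested 54.1% were below 0. Col1a1, Col5a1, Col11a1 and Col27a1, 4 of the 11, lay below control without overlap, against 7.62% of all genes, and 1 (Col2a1) lay above. Col2a1, the chain of cartilage collagen, was highest in rank there at 103 CPM against 72.5 CPM (log2 fold change 0.50, edgeR adjusted p = 0.159). Of the same genes 0 passed in Tbx20 KD against control, and Col5a3, a minor type V chain, came first at -0.25 with an edgeR adjusted p of 0.9997. Between the knockdowns 1 of 11 was higher in Gata4 KD, Col2a1 (0.61, SE 0.10, edgeR adjusted p = 0.0416). Against control, Col2a1 in Gata4 KD passed under 2 of 15 alternatives (DESeq2 adjusted p = 0.00430).

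Hypoxia is known to induce several prolyl and lysyl hydroxylase genes and Lox. Of 19 hypoxia response genes 18 were tested, and by edgeR 0 passed in either comparison with control. The nearest were Egln3, an oxygen sensor, in Gata4 KD (12.03 CPM against 5.66 CPM, log2 fold change 1.09, edgeR adjusted p = 0.166) and Ndrg1 in Tbx20 KD (0.47, edgeR adjusted p = 0.9997). Egln3 passed under 4 of 15 alternatives (DESeq2 adjusted p = 0.00157) and Ndrg1 under 2 of 15 (DESeq2 adjusted p = 0.0230). Between the knockdowns 1 was higher in Gata4 KD, the angiogenic factor Vegfa (0.39, SE 0.05, edgeR adjusted p = 0.0236), and 1 was lower, Ndrg1 (-0.68, SE 0.10, edgeR adjusted p = 0.0247).

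Serpinh1 is induced with other heat shock and stress genes in many cells. Of 16 endoplasmic reticulum chaperones 0 passed in any comparison, and the smallest p belonged to Herpud1 in Gata4 KD (-0.13), Manf in Tbx20 KD (-0.14) and Hyou1 between the knockdowns (0.17, edgeR adjusted p = 0.141). Of 10 cytosolic heat shock genes 0 passed in any comparison, with Hsph1 first in Gata4 KD (0.17), Hspa1a in Tbx20 KD (0.27) and Hsph1 between the knockdowns (0.24, edgeR adjusted p = 0.123). Between the knockdowns Hyou1 passed under 1 of 15 alternatives (DESeq2 adjusted p = 0.0426) and Hsph1 under 2 of 15. Hspa1a shares 54.2% of its windows with other genes. Median log2 fold changes in Gata4 KD against control were 0.01 for the reticulum chaperones and -0.005 for the cytosolic genes, where that of Serpinh1 was -0.23. Between the knockdowns 14 of the 16 reticulum chaperones were above 0, with a median of 0.11 where Serpinh1 was at -0.20. Of them 7 had an unadjusted edgeR p under 0.05, against 16.7% of all genes, and 9 did not overlap, against 23.0%. All of these were higher in Gata4 KD. In Tbx20 KD against control 15 of 16 were below 0, against 50.7%, and 4 lay below without overlap, where 6.74% did not overlap. Between the knockdowns 8 of 10 cytosolic genes were below 0, against 51.7% of all genes. The part of a stress response in the values of Serpinh1 was not tested.

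Of 12 myofibroblast genes, which mark the contractile state in which fibroblasts lay down matrix, 0 passed in either comparison with control, with a median log2 fold change of 0.11 in Gata4 KD and -0.08 in Tbx20 KD. Tnc, the matrix glycoprotein tenascin C, came first in both, at 3067 CPM in Gata4 KD, 1997 CPM in control and 1672 CPM in Tbx20 KD. Its log2 fold change was 0.62 in Gata4 KD (SE 0.11, edgeR adjusted p = 0.0888) and -0.24 in Tbx20 KD (SE 0.12, edgeR adjusted p = 0.9997). In Gata4 KD against control Tnc passed under 4 of 15 alternatives (DESeq2 adjusted p = 6.77e-05). Of the 12 genes 2 were below 0 in that comparison, against 54.1% of all genes tested. Tagln, Cnn1 and Tnc, 3 of the 12, lay above control without overlap and 0 lay below, where 13.8% of all genes did not overlap. Between the knockdowns Tnc was higher in Gata4 KD, the only 1 of 12 to pass, at 0.87 (SE 0.12, edgeR adjusted p = 0.0242). The calls of Col2a1, Vegfa, Ndrg1 and Tnc between the knockdowns were each lost when any of 4 libraries (Gata4 KD a, Gata4 KD b, Tbx20 KD b and Tbx20 KD c) was left out, with edgeR adjusted p up to 0.171, and that of Tnc also with the replicate letter as a block (edgeR adjusted p = 0.0574).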

How the data were processed

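Gene expression was measured by RNA sequencing of 9 libraries, 3 for each guide RNA group named in the labels. The authors trimmed reads and ran RSEM with Bowtie2 on GRCm38, per the methods of the study, while the submitters' processing notes name mm9. The deposited table holds expected counts per gene as whole numbers without normalization, and RSEM divides reads among genes with shared sequence. Total counts per library were 31214828 to 41950397, and their number limits precision at low counts only.

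Each comparison was fitted on its 6 libraries in R 4.3.3 with edgeR 4.0.16 (filterByExpr, TMM factors, glmQLFit and glmQLFTest), with Benjamini-Hochberg adjustment over all genes tested and a threshold of 0.05. CPM was scaled by TMM factors over all 9 libraries, and RPKM divided it by the union exon length of GENCODE M21 (GRCm38). The annotation behind the counts was not given in the sources used here. Correlations used log2 CPM with a prior count of 2. Of 38924 gene IDs 96.6% had a symbol. Comparing 3 with 3 libraries, an exact permutation test of a single value cannot reach 0.05, so only fits across all genes were used. The procedure was tested on simulated data modelled on the Gata4 KD and control libraries, with 200 genes changed 2-fold. It recovered 74.5% of these genes, and 9.15% of its calls were genes left unchanged, a share above the threshold of 0.05. Recovery of differences smaller than 2-fold was not tested. Those of Loxl2 (log2 fold change -0.56) and Serpinh1 (-0.23) in Gata4 KD against control were smaller, so the 74.5% does not apply to them.

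The members and lists were chosen with earlier results of these data known. Named were all members and both targets, up to 3 genes of each list past the threshold or otherwise the gene with the smallest p, and the gene most correlated with each member. Alternatives were RLE factors, library size alone, DESeq2 1.42.0, an exact test, limma-voom with limma 3.58.1, other count filters, 1 fit of all 9 libraries, the replicate letter as a block, and leaving out each library. Replicate letters did not pair the samples.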

Additional observations from a re-analysis of the deposited data

Results flagged for a closer look

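In the direct comparison, 4 genes of the lists around the collagen enzymes differed between Gata4 KD and Tbx20 KD by edgeR's quasi-likelihood test with Benjamini-Hochberg adjustment, and none of the 10 enzymes did. By list, 1 of 11 collagens and 1 of 12 myofibroblast genes passed, and of 18 hypoxia genes 1 was higher and 1 lower. The other lists gave 0 of 23 partners, 0 of 16 reticulum chaperones and 0 of 10 cytosolic heat shock genes. Of all 14477 genes tested 1.44% passed, and the lists were chosen with earlier results of these data known. Both knockdowns are set against the same control libraries, so the direct comparison is the test of the difference. Col2a1 was higher in Gata4 KD by 0.61 on the log2 scale (adjusted p = 0.0416, at 90.7 to 110 CPM in Gata4 KD and 59.1 to 73.6 CPM in Tbx20 KD). Vegfa was higher by 0.39 (adjusted p = 0.0236, at 173 to 183 CPM and 132 to 145 CPM). Ndrg1 was lower, with a log2 fold change of -0.68 (adjusted p = 0.0247, at 21.7 to 26.7 CPM and 34.7 to 40.3 CPM). Tnc was higher by 0.87 (adjusted p = 0.0242, at 2676 to 3309 CPM and 1403 to 1827 CPM). The direction was the same under every alternative run for these 4 genes, but each lost its call when Gata4 KD a, Gata4 KD b, Tbx20 KD b or Tbx20 KD c was left out, with adjusted p up to 0.171, 0.142, 0.136 and 0.121 for Col2a1, Vegfa, Ndrg1 and Tnc. Col2a1 also lost it without Tbx20 KD a (0.0545), and Tnc with the replicate letter as a block (0.0574).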

How the results depend on the processing

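The count of members past the threshold was 0 in all 3 comparisons under 8 of the 9 alternatives that kept every library. DESeq2 gave 1 member in Gata4 KD against control (Loxl2, -0.55, adjusted p = 0.0410) and 1 in Gata4 KD against Tbx20 KD (Serpinh1, -0.21, adjusted p = 0.0207). Leaving out 1 library gave 0 to 1 members between the knockdowns, the call being Loxl2 without Gata4 KD c, and 0 in the comparisons with control.

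Over the alternatives that kept every library, 266 values of members kept direction and side of the threshold, and 2 changed sign: Plod1 in Gata4 KD against control was 0.0044 with RLE factors and 0.0043 with DESeq2. With 1 library left out 157 of 180 did so and 22 changed sign. Their ranges in Gata4 KD against control were -0.28 to 0.11 for Lox, -0.14 to 0.0051 for P4ha1, -0.19 to 0.28 for P4ha3, -0.051 to 0.077 for Plod1 and -0.25 to 0.14 for Plod2. In Tbx20 KD against control they were -0.19 to 0.20 for Lox, -0.091 to 0.036 for P4ha2, -0.027 to 0.10 for Plod1 and -0.044 to 0.017 for Serpinh1. Between the knockdowns they were -0.086 to 0.19 for Loxl1, -0.41 to 0.088 for P4ha3 and -0.10 to 0.062 for Plod1. Ranges for Loxl2 in Gata4 KD against control were -0.71 to -0.42 and for Serpinh1 -0.26 to -0.19.

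Of the 10 places in the order of control RPKM, 5 were kept when the longest transcript stood in for exon length. With that length the control share of P4ha1 in its class was 72.4% where it had been 81.4%. Plod2 rather than Plod3 then held the largest mean share of the lysyl hydroxylases in control. In the same order of comparisons, 55, 1 and 208 of all genes passed in the fits reported, against 273, 10 and 761 with DESeq2, 250, 8 and 729 with an exact test, 121, 2 and 324 without a filter, and 148, 1 and 191 in 1 fit of all 9 libraries. Leaving out 1 library gave 6 (without Control a) to 189 (without Control b), 1 to 5 (without Control b), and 22 (without Gata4 KD a) to 801 (without Gata4 KD c). The replicate block called 5, 2 and 101 genes and 0 members, and Tnc between the knockdowns lost its call under it (adjusted p = 0.0574). Samples with the same letter had correlations of deviations from group means of -0.17 to 0.25, so the letters gave no pairing. The cause of these changes was not tested.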
